A study of Rattus norvegicus with 4 samples.

Results

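The genes described here code for subunits of the Polycomb repressor complexes (PRCs). They were taken by name from the gene count files of wtPC12 and hrPC12 cells, clones of PC12, a line of chromaffin-type cells grown from a rat adrenal tumour (pheochromocytoma). Of the 10 genes sought, 5 belong to PRC2 (Ezh1, Ezh2, Eed, Suz12 and Jarid2) and 5 to PRC1 (Ring1, Rnf2, Bmi1, Cbx2 and Cbx7). Of these, 7 were found among the 25810 genes listed, and Suz12, Jarid2 and Cbx2 were not analysed here. RNA was sequenced from wild-type PC12 (wtPC12), labelled as low in the repressor REST, and from high-REST PC12 (hrPC12), with 2 libraries per clone. hrPC12 is a clone with spontaneously high REST, earlier called PC12-27. No treatment is named in the labels. With 1 clone for each REST level, an effect of REST cannot be told apart from anything else in which these clones differ. The labels do not say whether the libraries of a clone came from separate cultures, so p values measure only the spread between libraries, which may be technical.

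PRC2 is the complex that methylates lysine 27 of histone H3, a mark of repressed chromatin. Ezh2 and Ezh1 are its alternative catalytic subunits, Ezh2 being typical of dividing cells and Ezh1 of resting and differentiated cells, while Eed and Suz12 are needed for its activity. PRC1 holds a ubiquitin ligase for histone H2A made of Ring1 or Rnf2 with a PCGF protein such as Bmi1, and in its canonical form a CBX protein, such as Cbx7, that binds the methylated lysine. In neural cells these complexes hold developmental genes silent, and REST has been described to act together with them.

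Promoters of Ezh2 and Cbx7 are shown because these were the tested members with the highest and the lowest fold change between the clones. The sequences are from RefSeq (rat build GRCr8, which is not the build of the counts) and cover 250 bases before and 50 after the annotated start of the gene, for Ezh2 chr4:77687134-77687433 and for Cbx7 chr7:113358297-113358596, both on the minus strand. Capitals mark a match to TTTGGCGC, a form of the motif bound by E2F factors of the cell cycle.
Ezh2: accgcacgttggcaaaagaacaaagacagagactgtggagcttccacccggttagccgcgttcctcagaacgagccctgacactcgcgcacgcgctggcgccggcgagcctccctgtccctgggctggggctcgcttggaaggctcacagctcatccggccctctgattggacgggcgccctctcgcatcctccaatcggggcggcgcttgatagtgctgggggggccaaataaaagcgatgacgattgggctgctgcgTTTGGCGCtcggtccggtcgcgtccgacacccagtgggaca
Cbx7: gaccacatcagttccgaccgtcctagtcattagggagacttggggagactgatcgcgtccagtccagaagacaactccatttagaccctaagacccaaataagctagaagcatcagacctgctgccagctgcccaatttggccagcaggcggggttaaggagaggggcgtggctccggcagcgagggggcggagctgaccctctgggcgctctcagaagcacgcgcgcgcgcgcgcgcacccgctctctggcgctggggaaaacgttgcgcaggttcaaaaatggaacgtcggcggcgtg
Both windows were rich in CpG, with 30 CpG dinucleotides in that of Ezh2 and 26 in that of Cbx7, where the median over all 33469 promoters was 7. The RefSeq table held 8 of the 10 members. TTTGGCGC, searched on both strands, was in the window of Ezh2 at base 260 and in 0.493% of all windows of the same length, and the form TTTCCCGC was in that of Suz12 and in 0.974% of all windows. The form TTTGGCGG was in the window of none of the 8 members and in 0.466% of all windows. These forms were chosen after the sequences had been seen. Each holds a CpG, and their share among windows equally rich in CpG was not computed. The parts of the REST motif searched, TTCAGCACC and GGACAGNGC, were in none of the 8 members' windows and in 0.356% and 1.83% of all windows. The latter was searched first in a longer form, which was in none of these windows either, and was shortened by 1 letter after that. A match is a description of these letters and not of binding.

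Reads counted on genes numbered from 20975027 to 27246502 per library. Rest itself had 43.0 and 132 normalized counts in the wtPC12 libraries and 964 and 915 in those of hrPC12, with a log2 fold change (log2 FC, hrPC12/wtPC12) of 3.42 ± 0.57 (SE). Its adjusted p of 0.0115 (edgeR's quasi-likelihood test, adjusted over all tested genes by Benjamini and Hochberg, as throughout) narrowly missed the threshold of 0.01, and DESeq2 gave 1.94e-10. With each library left out in turn its log2 FC was 2.80 to 4.44. Normalized counts are counts divided by the library's size, scaled with edgeR's TMM factors, and a gene is said here to have risen or fallen where this edgeR adjusted p was under 0.01. Of 7 tested genes of chromaffin cells, from which PC12 derives, 6 fell in hrPC12, where 7.14% of all tested genes fell. The 6 were Th, Dbh, Chgb, Slc18a1, Phox2a and Gata2, while Ddc had a log2 FC of 0.27. These 7 markers summed to 967560 and 831107 normalized counts in the wtPC12 libraries and to 49289 and 54355 in those of hrPC12. The 8 white blood cell markers summed to at most 45.4 in wtPC12 and 99.2 in hrPC12, with at most 1 read of Ptprc in a library. Of this list Cd68 had the highest mean normalized count and a log2 FC of 1.63 (edgeR adjusted p = 0.0283). Of the 6 fibroblast markers, 5 were tested and Col1a1 and Col1a2 rose, where 5.94% of all tested genes rose. Dcn had a log2 FC of −3.10 and Thy1 of −0.99 (edgeR adjusted p = 0.0182 and 0.0137), and Pdgfra had 0.57. The sum of the fibroblast list was 17978 and 16219 in wtPC12 and 8994 and 9182 in hrPC12, of which Thy1 made up 17929 and 16186, and 8532 and 8674.5. The part of these differences in the values below was not tested, and in bulk RNA fewer cells expressing a gene and less RNA per cell cannot be told apart.

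In PRC2 the catalytic subunit genes differed between the clones in opposite directions. Ezh2 counts were higher in both hrPC12 libraries and those of Ezh1 lower, while the values of Eed lay close together. For Ezh1 the libraries held 2609 and 2716 normalized counts in wtPC12 and 1450.1 and 1528 in hrPC12. For Ezh2 they held 1275 and 1319.55 in wtPC12 and 2369 and 2395 in hrPC12. For both genes the clones did not overlap, as in 73.5% of all tested genes. The libraries of a clone lay closer to each other than to any of the other clone. The log2 FC of Ezh1 was −0.84 ± 0.17 (SE, 95% confidence interval −1.26 to −0.42) and for Ezh2 0.88 ± 0.17 (interval 0.44 to 1.31). These are 1.79-fold lower and 1.84-fold higher values. The edgeR adjusted p was 0.0192 for Ezh1 and 0.0180 for Ezh2, over the threshold of 0.01 and under 0.05. DESeq2 gave 0.00239 and 0.00341, under the threshold, and with a library left out the edgeR adjusted p reached 0.164 for Ezh1 and 0.111 for Ezh2.

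Eed codes for the subunit that binds the trimethylated lysine and stimulates the catalytic subunit. It had 1342 and 1257 normalized counts in the wtPC12 libraries and 1429.8 and 1451 in those of hrPC12, a log2 FC of 0.15 ± 0.18 (SE, interval −0.31 to 0.61, edgeR adjusted p = 0.549). The hrPC12 libraries lay above those of wtPC12 by a difference of the size of that between the wtPC12 libraries. Summed over Ezh1, Ezh2 and Eed, the normalized counts were 5227 and 5293 in wtPC12 and 5249 and 5374 in hrPC12. The libraries of the clones were thus near each other in this sum, with Ezh1 and Ezh2 differing in opposite directions. A sum of counts gives long transcripts more weight, and gene lengths of the counted build were not used here, so levels of different genes are not compared.

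In PRC1, 3 of the 4 genes tested had lower counts in hrPC12, where the median log2 FC of all tested genes was 0.06. Cbx7 fell, as did 7.14% of all tested genes. Cbx7, a chromodomain subunit of canonical PRC1, had 2165 and 2214 normalized counts in wtPC12 and 698 and 849 in hrPC12. Its means of 2189 ± 34.5 and 773 ± 107 (SD, n = 2 each) gave a log2 FC of −1.50 ± 0.20 (SE, interval −2.02 to −0.99, edgeR adjusted p = 0.00622), or 2.83-fold lower. The wtPC12 libraries were nearly equal, and each hrPC12 library was far below them. The log2 FC of Cbx7 was −1.37 without hrPC12 replicate 1, −1.55 without wtPC12 replicate 1 and −1.49 without wtPC12 replicate 2. In each of these edgeR fits on 3 libraries its call was lost. In the last of them the call was lost for every gene. Without hrPC12 replicate 2 the call was kept, at a log2 FC of −1.70.

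Ring1 and Rnf2 code for the alternative catalytic ligase subunits of PRC1. Ring1 had 1838 and 1690.4 normalized counts in wtPC12 and 729.7 and 830.7 in hrPC12, a log2 FC of −1.18 ± 0.20 (SE, interval −1.68 to −0.67). With an edgeR adjusted p of 0.0119 it missed the threshold by little, while RLE factors, a test of every gene with a read, or DESeq2 each brought it under 0.01. With a library left out, its edgeR adjusted p was 0.0270 to 0.0648. Rnf2 had 1697 and 1555 in wtPC12 and 975 and 1178 in hrPC12, a log2 FC of −0.60 ± 0.20 (SE, interval −1.11 to −0.08, edgeR adjusted p = 0.0783). In both genes the clones did not overlap, as in 73.5% of all tested genes. The hrPC12 libraries of Rnf2 were farther apart than those of wtPC12.

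Bmi1, the PCGF subunit best known for the repression of the Cdkn2a locus, had 511 and 763 normalized counts in wtPC12 and 708 and 764 in hrPC12. It was the member in which the clones overlapped, and the wtPC12 libraries differed from each other by more than the means of the clones. Its log2 FC was 0.21 ± 0.28 (SE, interval −0.49 to 0.91, edgeR adjusted p = 0.581), and −0.083 without wtPC12 replicate 1. Summed over Ring1, Rnf2, Bmi1 and Cbx7, the normalized counts were 6211 and 6223 in wtPC12 and 3110.2 and 3621 in hrPC12. The plot of the members by library shows both patterns, the opposite differences of Ezh1 and Ezh2 and the lower counts of Ring1, Rnf2 and Cbx7.

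**Figure D1:**
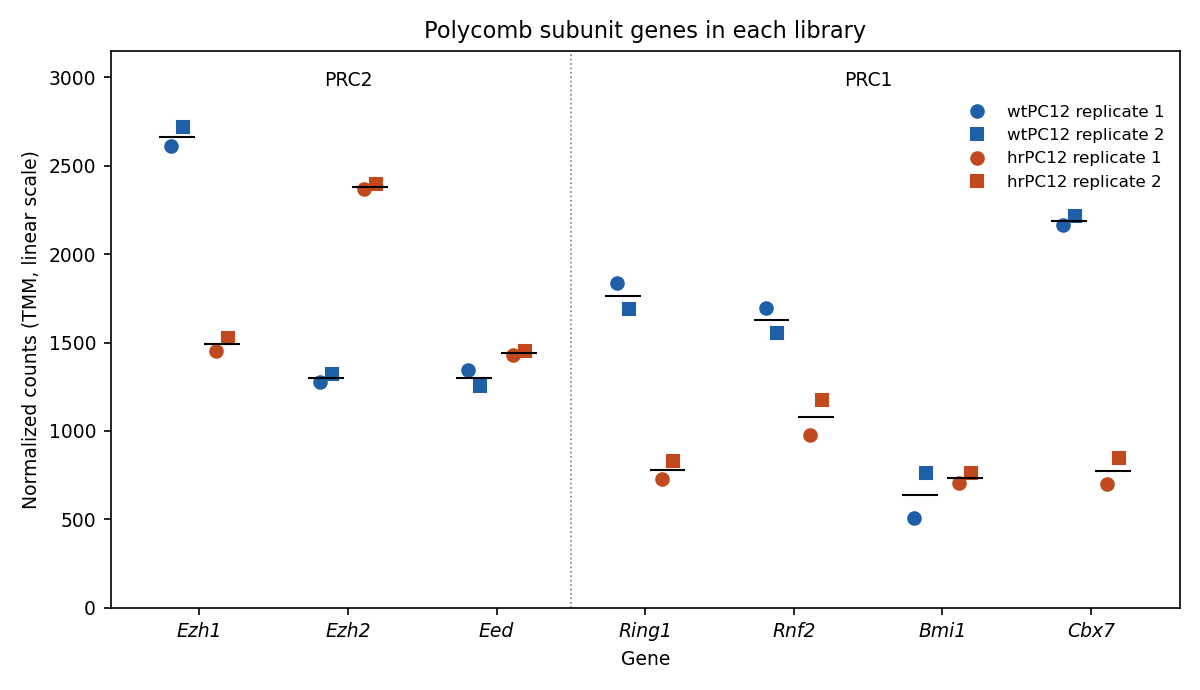
Normalized counts (y axis, linear scale from 0) of the 7 members found, with wtPC12 libraries in blue and hrPC12 libraries in orange, circles for replicate 1, squares for replicate 2 and a black line at the mean of each clone. Ezh2 lay higher in both hrPC12 libraries (2369 and 2395), Ezh1, Ring1, Rnf2 and Cbx7 lay lower, and Bmi1 overlapped.

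Over the 7 members, 1 fell (Cbx7) and 0 rose by edgeR's test, or 14.3%, where 13.1% of all 13726 tested genes changed, 7.14% lower and 5.94% higher. The share among the members was near that of all genes. At an unadjusted p under 0.05, 4 members were lower and 1 higher, where 22.7% of all tested genes were lower and 23.6% higher. With DESeq2 3 were lower and 1 higher, where 14.3% of all genes were lower and 14% higher, 28.3% in all. With an adjusted p under 0.05 in edgeR, Ezh1, Ring1 and Cbx7 were lower and Ezh2 higher, 4 of 7 members where 32.4% of all genes passed. In 6 of the 7 members the clones did not overlap, as in 73.5% of all tested genes. The median log2 FC was 0.15 over the 3 PRC2 genes and −0.89 over the 4 PRC1 genes, beside 0.06 over all tested genes. None of the 7 members passed the additional threshold of the study, a log2 FC past 2 in either direction, which 10.3% of all tested genes passed together with the adjusted p threshold.

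The ratio of the reads of paralogous subunits within a library does not depend on library size, and its change between clones does not depend on gene length. The ratio of Ezh2 to Ezh1 reads was 0.489 and 0.486 in the wtPC12 libraries and 1.63 and 1.57 in those of hrPC12, and so 3.28-fold higher in hrPC12. The SDs of the log2 ratio were 0.00597 in wtPC12 and 0.042 in hrPC12 (n = 2 each). As gene lengths were not used, a ratio of 1 does not mark equal levels of Ezh2 and Ezh1. The difference of the log2 ratio was 1.72, and the exact permutation test, 2-sided, gave p = 0.333, the smallest value that 2 libraries against 2 allow. The ratio of Rnf2 to Ring1 was 0.923 and 0.920 in wtPC12 and 1.34 and 1.42 in hrPC12, 1.49-fold higher, with the same exact permutation p of 0.333. Over these 2 pairs the p adjusted by Benjamini-Hochberg is also 0.333. In both pairs the ratios of the clones were apart by far more than the libraries of a clone. The share of other gene pairs with such a gap was not computed, so it is not read as particular to paralogs. The plot of the ratios shows the wider gap for the PRC2 pair.

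**Figure D2:**
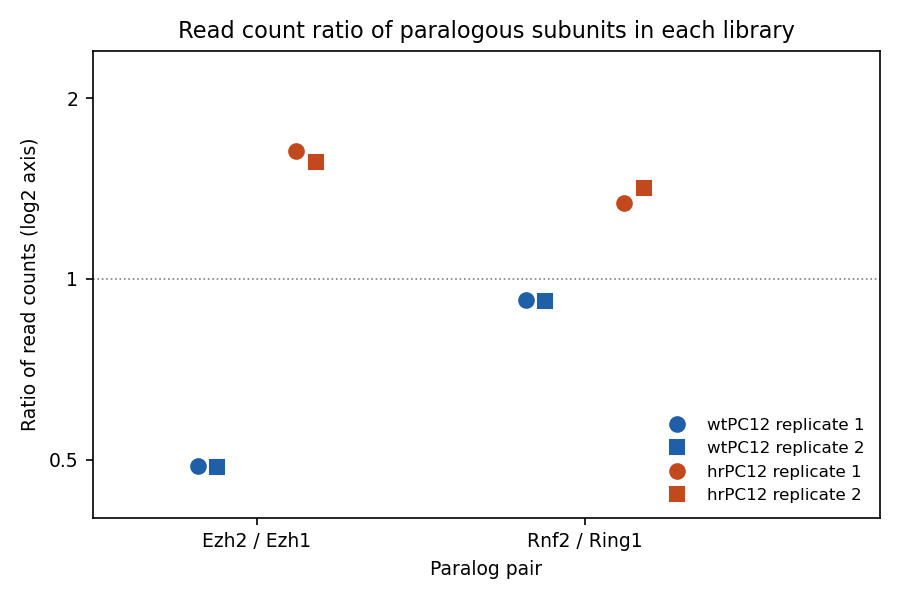
Ratio of read counts within each library (y axis, log2 scale) for Ezh2 over Ezh1 and Rnf2 over Ring1, with wtPC12 in blue, hrPC12 in orange, circles for replicate 1 and squares for replicate 2. The Ezh2 to Ezh1 ratio was 0.486 to 0.489 in wtPC12 and 1.57 to 1.63 in hrPC12. The dotted line at 1 does not mark equal levels, as gene lengths were not used.

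The tested genes nearest to a member in pattern were sought among 10817 genes with a mean of at least 100 normalized counts, by the Euclidean distance of log2 normalized counts centred on each gene's mean over the 4 libraries. Nearest to Ezh1 were Arih2 (distance 0.0212), Aen (0.0266) and Dexi (0.0362). Nearest to Ezh2 were the genes listed as Q3KR90_RAT (0.0516), Srpr (0.054) and GUAA_RAT (0.0665). The likeness rests on 4 values per gene.

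Other genes of the Polycomb system were taken from lists that followed the composition of the complexes. Of 51 such genes 36 were found and 35 tested, of which Scmh1 rose and Pcgf1 fell, 2 genes or 5.71%, where 13.1% of all genes changed. Of the 35, 7 were higher and 7 lower at an unadjusted p under 0.05, which 46.3% of all genes passed, and 5 were higher and 6 lower with DESeq2, which passed 28.3% of all genes. Their median log2 FC was 0.15. The log2 FC of all tested members and other Polycomb genes are drawn with their confidence intervals by complex.

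**Figure D3:**
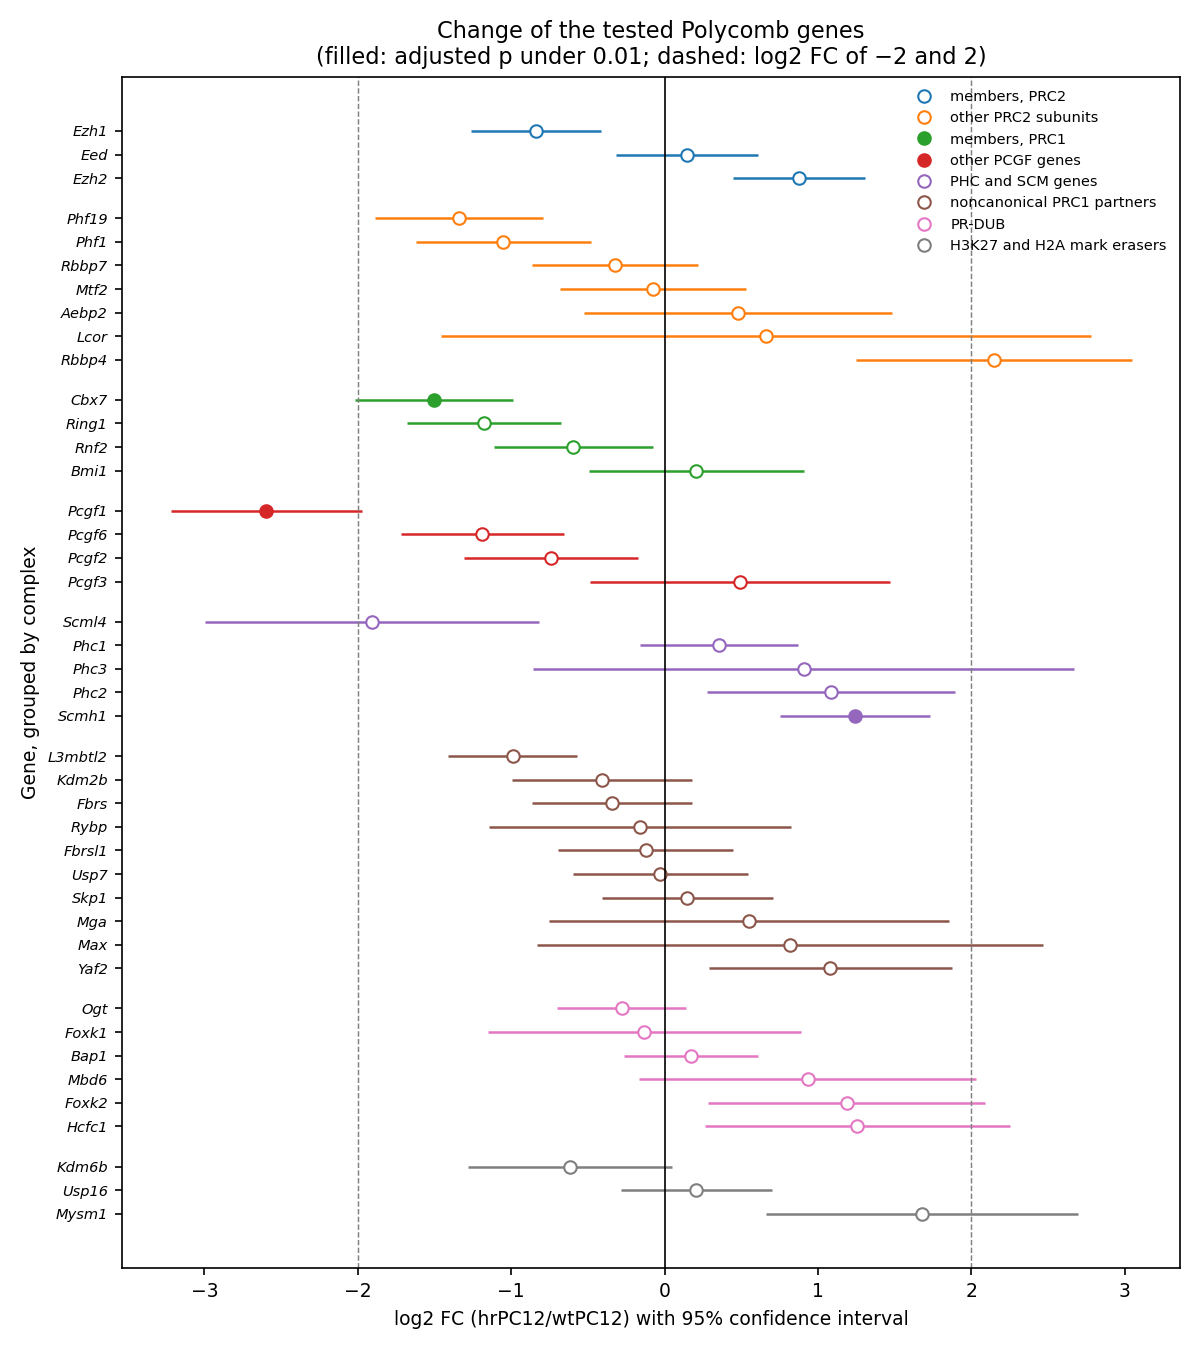
The log2 FC (x axis, hrPC12/wtPC12) with its 95% confidence interval for the 7 members and 35 other tested Polycomb genes, grouped and coloured by complex. Filled circles mark an adjusted p under 0.01 (Cbx7, Pcgf1 and Scmh1), and dashed lines mark a log2 FC of −2 and 2, which Pcgf1 and Rbbp4 exceeded.

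Of the PCGF genes other than Bmi1, which set the variant of PRC1, Pcgf1 fell. It had 3549 and 2562 normalized counts in wtPC12 and 475 and 534 in hrPC12, a log2 FC of −2.60 ± 0.24 (SE, edgeR adjusted p = 0.00213), or 6.05-fold lower. Without wtPC12 replicate 2 its log2 FC was −2.81, and its call was lost, as for every gene in that fit. Pcgf6 had a log2 FC of −1.19 and Pcgf2 of −0.74 (edgeR adjusted p = 0.0138 and 0.0571), and Pcgf3 had 0.49. Of these 4 genes, Pcgf1 passed the test (13.1% of all tested genes) and the clones did not overlap in 3 (73.5% of all). Their median log2 FC was −0.96. Pcgf1 and Pcgf6 belong to noncanonical PRC1, in which L3mbtl2 is the partner of Pcgf6. L3mbtl2 had 3943 and 3707 normalized counts in wtPC12 and 1836 and 2017 in hrPC12, a log2 FC of −0.99 ± 0.17 (SE, edgeR adjusted p = 0.0118). Of the 10 noncanonical partners tested 0 passed edgeR's threshold, where 13.1% of all tested genes did. An unadjusted p under 0.05 was found in 2 (46.3% of all genes), and 1 passed with DESeq2 (28.3% of all genes). Yaf2, a partner of Ring1 and Rnf2, had a log2 FC of 1.08 ± 0.31 (SE), Max had 0.82 and Skp1, with the highest mean normalized count of the list, 0.15.

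Of the Polyhomeotic and SCM genes, whose products assemble canonical PRC1 into larger bodies, Scmh1 rose. It had 615 and 644 normalized counts in wtPC12 and 1476 and 1499 in hrPC12, a log2 FC of 1.24 ± 0.19 (SE, edgeR adjusted p = 0.00958), or 2.36-fold higher. The call was near the threshold, and without 1 library the adjusted p of Scmh1 lay between 0.0240 and 0.0461 (edgeR). Phc2 had a log2 FC of 1.08 ± 0.32, Phc3 of 0.91 ± 0.69, Phc1 of 0.36 ± 0.20 and Scml4 of −1.91 ± 0.43 (SE each). For Phc3 the wtPC12 libraries were far apart, with 186 and 862 normalized counts beside 1025 and 942 in hrPC12. Its interval was −0.86 to 2.67 (edgeR adjusted p = 0.345). Phc2 had 1818 and 1055 normalized counts in hrPC12 (edgeR adjusted p = 0.0537). In all 5 genes the clones did not overlap, as in 73.5% of all tested genes, and 4 had a log2 FC above 0.

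Of the other PRC2 subunits 7 were tested and 0 passed edgeR's threshold, where 13.1% of all tested genes did. An unadjusted p under 0.05 was found in 3 (46.3% of all genes), and the same number passed with DESeq2 (28.3% of all genes). Phf19 and Phf1 code for Polycomb-like proteins that bring PRC2 to chromatin. Phf19 had 1016 and 1087 normalized counts in wtPC12 and 390.3 and 439 in hrPC12, a log2 FC of −1.34 ± 0.21 (SE, edgeR adjusted p = 0.0105), and Phf1 had −1.05 ± 0.22 (SE, edgeR adjusted p = 0.0236). Mtf2, the third gene of this family, had −0.075. Rbbp4, a histone-binding subunit that PRC2 shares with other chromatin complexes, had 889.9 and 875 normalized counts in wtPC12 and 5155 and 2650.0 in hrPC12, a log2 FC of 2.15 ± 0.35 (SE, edgeR adjusted p = 0.0113). Its hrPC12 libraries both lay above those of wtPC12, and replicate 1 was far above replicate 2. Its close paralog Rbbp7, with the highest mean normalized count of the list, had a log2 FC of −0.32. Whether reads were shared between these paralogs was not tested, so the values of both are uncertain.

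The enzymes that remove Polycomb marks showed 0 calls in edgeR's test, which called 13.1% of all tested genes. The PR-DUB complex removes ubiquitin from histone H2A. Of its 6 tested genes, 2 had an unadjusted p under 0.05 (46.3% of all genes) and 2 passed with DESeq2 (28.3%). Its catalytic gene Bap1 had a log2 FC of 0.17 (interval −0.27 to 0.61), Hcfc1 of 1.26, Foxk2 of 1.19 and Mbd6 of 0.93. Of the 3 tested genes among other erasers, Mysm1, an H2A deubiquitinase, had a log2 FC of 1.68 ± 0.40 (SE, edgeR adjusted p = 0.0312). DESeq2 passed 1 of the 3 (28.3% of all genes). Kdm6b, a demethylase of lysine 27 of histone H3, had −0.62 and Usp16 had 0.21. Cdkn2a and Cdkn2b, inhibitors of the cell cycle that Bmi1, Cbx7 and Ezh2 are known to repress, had 0 reads in each of the 4 libraries, which allows up to 3 reads or 2.54 to 3.49 normalized counts by library, for counting error only.

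Since Ezh2 is known as a gene of dividing cells, genes of proliferation were set beside it. Of the 16 listed 10 were tested and 0 passed edgeR's threshold (13.1% of all genes). At an unadjusted p under 0.05, 4 were higher and 1 lower (46.3% of all genes). DESeq2 passed 3 as higher (28.3% of all genes in either direction). The median log2 FC was 0.17. Mcm2, a subunit of the replicative helicase, had 2949 and 3203 normalized counts in wtPC12 and 5194 and 5653 in hrPC12. Its log2 FC was 0.82 (edgeR adjusted p = 0.0198). Rrm2 had a log2 FC of 1.72 and Tyms of 1.34 (edgeR adjusted p = 0.0180 and 0.0671). In both genes hrPC12 replicate 1 exceeded replicate 2, by 0.91 and 0.77 on the log2 scale. E2f1, which codes for an E2F factor, had a log2 FC of −0.70 (edgeR adjusted p = 0.0325), and Pcna, with the highest mean normalized count of the list, had −0.32. Summed over the 10 genes the counts were 48070.4 and 42932 in wtPC12 and 50029.5 and 50026 in hrPC12. Their part in the difference of Ezh2 was not tested.

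The libraries of a clone also differed from each other in some genes of the wider list. In 9 of the 35 other Polycomb genes hrPC12 replicate 1 exceeded replicate 2 by over 0.5 on the log2 scale, and in 0 it lay below by as much. These 9 genes (Rbbp4, Lcor, Pcgf3, Phc2, Yaf2, Max, Foxk2, Hcfc1 and Mbd6, named after their values were seen) all had a log2 FC above 0. In 16 of the 35 wtPC12 replicate 1 lay below replicate 2 by over 0.5, with the widest gaps in Lcor and Phc3. The share of all genes past 0.5 was not computed, so these counts are not read as particular to Polycomb genes. Over 10818 genes with a mean of at least 100 normalized counts, the log2 ratio of the libraries had an SD of 0.63 in wtPC12 and 0.56 in hrPC12. The 16 genes within 0.5 in both clones had a median log2 FC of −0.30, 5 of them above 0 and 11 below. All 35 had a median of 0.15. The counts that give the log2 FC also set this selection, and it left out the 9 genes named above. The lower median therefore cannot show a trend of the list. Among the 7 members Bmi1 was the one past 0.5 in wtPC12, with a log2 ratio of −0.58, and none was past it in hrPC12. The source of these differences between libraries was not tested.

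**Figure D4:**
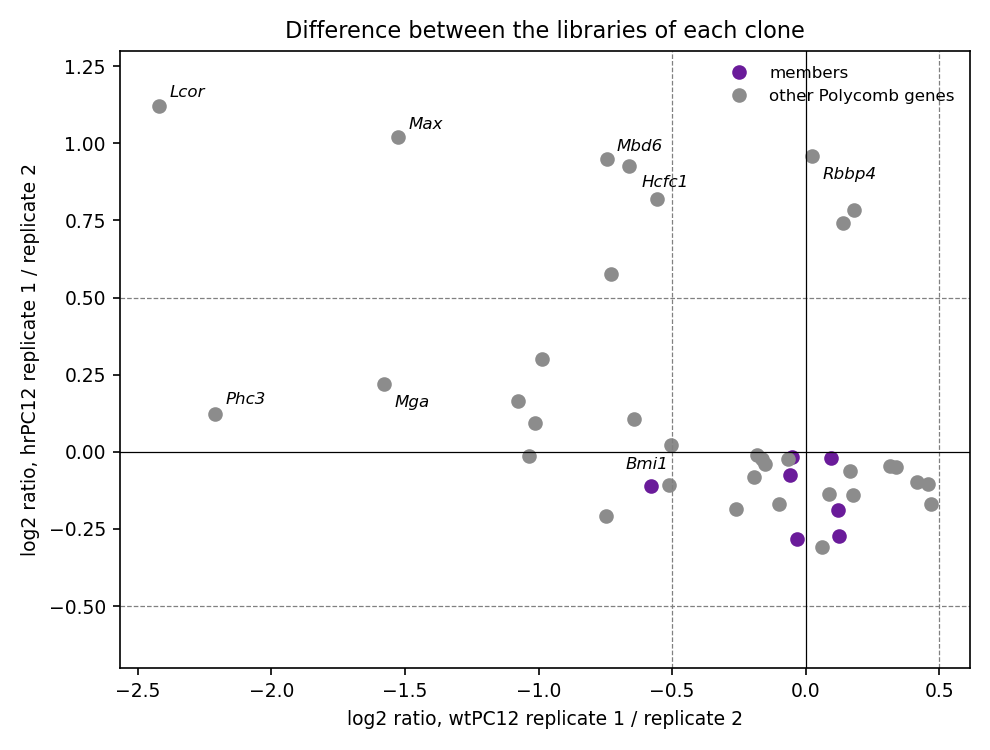
The log2 ratio of normalized counts between replicate 1 and replicate 2 in wtPC12 (x axis) and in hrPC12 (y axis), with 1 point for each of the 7 members (purple) and 35 other tested Polycomb genes (grey), and dashed lines at −0.5 and 0.5. The members lie near the origin except Bmi1 at −0.58 in wtPC12, while 9 other genes lie above 0.5 in hrPC12.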

How the data were processed

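The study sequenced RNA of wtPC12 and hrPC12 (2 libraries each, Illumina TruSeq RNA v2, paired-end). Per the labels, the authors aligned the reads to rn4 with TopHat2 2.0.4, counted them per gene with HTSeq 0.5.3 and compared the clones with DESeq 1.9.12. The strand setting of the counting is not given in the sources used here, so reads of genes that overlap on opposite strands cannot be told apart. The deposited values are raw read counts per gene and library, without normalization or filter. The 5 closing rows of totals were left out. Reads on genes made up 37.9% to 41.3% of all reads in the files, and those outside genes 49.9% to 55.9%. A table of the authors' DESeq comparison (mean counts, fold changes and p values) was not used.

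All genes were fitted in R 4.3.3 with edgeR 4.0.16 (TMM factors, quasi-likelihood test, legacy option on) and Benjamini-Hochberg adjustment. As in the study, genes averaging under 5 normalized counts or without a read in one of the clones were left out, which left 13726 genes. The normalized count is the count over the effective library size times the mean of these sizes. Standard errors and 95% confidence intervals were derived from the quasi-likelihood F statistic. Ratios of paralogs were compared by the exact permutation test over the 4 libraries. Tried as alternatives were DESeq2 1.42.0, RLE factors or no factors, no filter or filterByExpr, the legacy option off, a threshold of 0.05, and fits that each lack 1 library.

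The members and gene lists were chosen with earlier results of these data known. Named are all members, Rest, in each list the genes past an adjusted p of 0.01, up to 3 others with the largest log2 FC and the gene with the highest mean normalized count, and the 3 genes nearest in pattern to Ezh1 and to Ezh2. Phc1, Mtf2, Lcor, E2f1, Ptprc and, in a plot alone, Mga were named after their values were seen. Genes were matched by name, and by RefSeq synonym for the lists other than the members. Promoters were matched by symbol. Of the lists, 1 marker gene is not reported here.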

Additional observations from a re-analysis of the deposited data

How the results depend on the processing

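The number of members that passed was sensitive to the setting. For members higher in hrPC12 it was 0, and 1 (Ezh2) with DESeq2 or an adjusted p under 0.05, and 0 to 0 with each library left out. For members lower it was 1, and 2 with RLE factors, 2 with every gene with a read, 3 with DESeq2 and 3 with an adjusted p under 0.05, and 0 to 1 with each library left out. No member passed the log2 FC threshold of the study under any of these. Of the other Polycomb genes 1 was higher, and 2 with library totals alone, 2 with RLE factors, 2 with every gene with a read, 5 with DESeq2 and 3 with an adjusted p under 0.05, or 0 to 2 with each library left out. Of these genes 1 was lower, and 4 with RLE factors, 4 with every gene with a read, 2 with edgeR filterByExpr, 6 with DESeq2, 2 with the legacy option off and 6 with an adjusted p under 0.05, or 0 to 1 with each library left out. The cause was not tested. DESeq2 passed 28.3% of all genes where edgeR passed 13.1%, and without wtPC12 replicate 2 edgeR passed 0% of all genes. Of the members Bmi1 changed sign in the settings tried, with a log2 FC of −0.083 without wtPC12 replicate 1 and 0.53 when replicate 2 of wtPC12 was left out, the ends of its range with each library left out, and the other 6 kept theirs in all of them. The log2 difference of the Ezh2 to Ezh1 ratio stayed within 1.69 to 1.75 and that of Rnf2 to Ring1 within 0.54 to 0.62 with each library left out. The ratio of Cbx2 to Cbx7 was planned and not computed, as Cbx2 was not analysed here. No paired analysis was possible because the library labels give the clones no shared replicate numbers, and the numbers used here, given in accession order, only name the libraries. In the fits that leave out a library the lone library of a clone is assumed to vary like the others.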
